A study of Mus musculus with 12 samples.

Results

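Keratin-associated protein genes, whose mouse symbols begin with Krtap, were followed across 12 Affymetrix mouse arrays of epithelial cells sorted from mouse back skin. Every gene with such a symbol was taken, provided that the platform annotation gave at least 1 of its probe sets that symbol alone. This gave 38 Krtap genes, read by 43 probe sets, out of 18193 genes in all. For each gene the probe set with the highest mean log2 signal was used.

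The study compared 2 genotypes at Tgfbr2, the gene of the type II TGF-beta receptor, named TßRII-cKO and TßRII-Het in the labels and cKO and Het here. The mice were untreated females aged 72 to 74 days, of mixed C57BL/6 and CD1 strain, at the passage from the second resting phase of the hair cycle into new growth. From each genotype came cells of the hair germ (HG), cells of the bulge and total skin keratinocytes, all sorted with Rosa26-YFP, P-cadherin and CD34 as markers. The first 2 fractions are stem cells of the hair follicle (HFSCs), and all 3 were collected in 2 sets. In set 2 the labels call the cKO HG and bulge cells aberrantly quiescent and the Het ones activated. In set 1 they call HG and bulge cells of both genotypes quiescent. Total keratinocytes carry no such word in either set. Each combination of genotype, fraction and set was 1 array. The labels name no Cre driver, number of mice or pooling, and do not say whether fractions or sets shared mice, so the p-values below measure the spread between these arrays.

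Keratin-associated proteins fill the space between the keratin filaments of the hair shaft and bind them through disulfide bonds. They are made late, in cells of the shaft cortex and cuticle above the matrix of a growing follicle, after the hair keratins have been switched on. By convention the families are divided into high glycine-tyrosine, high sulfur and ultra-high sulfur proteins. The hair germ lies below the bulge and gives rise to the matrix when a resting follicle starts to grow. Hoxc13, Foxn1, Msx2 and Lef1 are transcription factors of the matrix and of shaft differentiation.

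By family number, 13 of the 38 genes were counted here as high glycine-tyrosine, 8 as high sulfur and 14 as ultra-high sulfur. Krtap16-3, Krtap28-13 and Krtap31-1 were not assigned. The classes, among them ultra-high sulfur for Krtap10-4 and Krtap12-1, were not checked against protein sequences. The line drawn between high and ultra-high sulfur genes rests on this assignment alone. In the RefSeq gene table, 20 of the 38 lie on chromosome 16, 10 on chromosome 11, 5 on chromosome 7, 2 on chromosome 10 and 1 on chromosome 1. Krtap8-1, Krtap7-1 and Krtap11-1 follow each other on chromosome 16, and Krtap14 and Krtap15 are neighbours on the same chromosome. Krtap10-4 and Krtap12-1 overlap the gene Tspear.

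Promoters were available for 36 of the 38 genes, as the 250 bases before and 50 bases after the gene start in RefSeq (GRCm38.p6). The letters TATAA, the core of a TATA box, stood on the gene's strand between 60 and 20 bases before the start in 31 of the 36 (86.1%), against 4.9% of 32851 promoters of all genes. Anywhere in the 300 bases and on either strand, TATAA was found in 36 of the 36, against 24.9% of all promoters. The letters CTTTGAT, bound by Lef and Tcf factors, were found on either strand in 2 of the 36 (5.6%), against 3.7% of all promoters. Only these exact letters were searched, so their absence does not show that a promoter lacks a Lef or Tcf site. Below are the promoters of 4 genes with large differences between sets in HG cells, Krtap8-1, Krtap11-1, Krtap15 and Krtap22-2, and that of Krtap17-1, which was distributed differently. Each is written 5′ to 3′ on the gene's strand, and capitals mark the TATAA of that window. They come from chr16:89487903-89488202 (minus strand), chr16:89571134-89571433 (minus), chr16:88828759-88829058 (plus), chr16:89010710-89011009 (minus) and chr11:99993945-99994244 (minus).
Krtap8-1: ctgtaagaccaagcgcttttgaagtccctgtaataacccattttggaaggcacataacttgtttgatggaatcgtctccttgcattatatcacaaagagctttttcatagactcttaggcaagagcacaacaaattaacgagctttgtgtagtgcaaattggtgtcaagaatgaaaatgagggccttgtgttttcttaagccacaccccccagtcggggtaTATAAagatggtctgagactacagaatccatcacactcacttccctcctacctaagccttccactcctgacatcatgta
Krtap11-1: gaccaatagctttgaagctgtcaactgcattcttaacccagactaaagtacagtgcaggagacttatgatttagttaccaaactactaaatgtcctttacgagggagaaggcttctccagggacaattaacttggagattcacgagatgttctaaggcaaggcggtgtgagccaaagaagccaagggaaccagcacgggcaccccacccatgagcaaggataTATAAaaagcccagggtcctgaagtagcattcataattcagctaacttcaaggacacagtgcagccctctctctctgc
Krtap15: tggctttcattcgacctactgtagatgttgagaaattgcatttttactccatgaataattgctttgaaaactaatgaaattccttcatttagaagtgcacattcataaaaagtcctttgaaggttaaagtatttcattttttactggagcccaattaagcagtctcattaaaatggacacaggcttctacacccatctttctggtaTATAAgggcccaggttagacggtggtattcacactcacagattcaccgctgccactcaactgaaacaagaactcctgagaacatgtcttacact
Krtap22-2: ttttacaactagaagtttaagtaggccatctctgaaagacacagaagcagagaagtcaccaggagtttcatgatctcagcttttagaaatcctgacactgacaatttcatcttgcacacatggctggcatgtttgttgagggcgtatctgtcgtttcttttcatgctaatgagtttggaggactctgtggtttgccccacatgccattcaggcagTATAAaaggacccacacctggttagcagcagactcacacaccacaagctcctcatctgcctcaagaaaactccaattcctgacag
Krtap17-1: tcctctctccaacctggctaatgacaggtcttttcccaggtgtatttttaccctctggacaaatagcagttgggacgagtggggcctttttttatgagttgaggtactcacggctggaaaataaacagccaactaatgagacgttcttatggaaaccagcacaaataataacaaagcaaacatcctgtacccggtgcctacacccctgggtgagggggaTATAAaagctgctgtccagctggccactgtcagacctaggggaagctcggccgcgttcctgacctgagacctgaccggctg
The TATAA began 29 bases before the start in Krtap8-1, 28 in Krtap11-1, 44 in Krtap15, 35 in Krtap22-2 and 31 in Krtap17-1. None of these 5 promoters held the exact letters CTTTGAT on either strand, and variants of them were not searched. All 5 thus carried TATAA in the window, Krtap17-1 included.

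Signals are MAS5 intensities on a linear scale, which the authors scaled to a trimmed mean of 500 on each array. The pooled median over all arrays was 84.7 and the pooled 25th percentile, used as a floor, was 20.7. Signals under the floor have no order among themselves, and a fold change against one is given as "at least". Levels of different genes are not compared, since each has its own probes. Of the 38 Krtap genes, 12 exceeded the pooled median on at least 2 of the 12 arrays, against 70.1% of all genes. These were Krtap3-1, Krtap7-1, Krtap8-1, Krtap10-4, Krtap11-1, Krtap12-1, Krtap13-1, Krtap14, Krtap15, Krtap16-3, Krtap17-1 and Krtap22-2. By the classes assigned here, they comprised 5 of the 8 high sulfur genes, 3 of the 13 high glycine-tyrosine genes, 3 of the 14 ultra-high sulfur genes and Krtap16-3. Of the other 26 genes, Krtap1-5, Krtap6-5, Krtap9-3, Krtap21-1 and Krtap31-1 passed the median on 1 array and 21 on none. The highest signal of these 26 genes lay between 7.68 and 229.6, and Krtap19-3 was under the floor on every array.

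The number of Krtap genes above the pooled median was 15 on the cKO HG array of set 2, 12 on the Het HG array of set 2 and 10 on the Het total keratinocyte array of set 2. It was between 2 and 5 on each of the other 9 arrays. Over all genes the share above the median differed little, from 58.3% to 67.0% of genes per array. The median signal per array lay between 63.9 and 108.7.

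**Figure D1:**
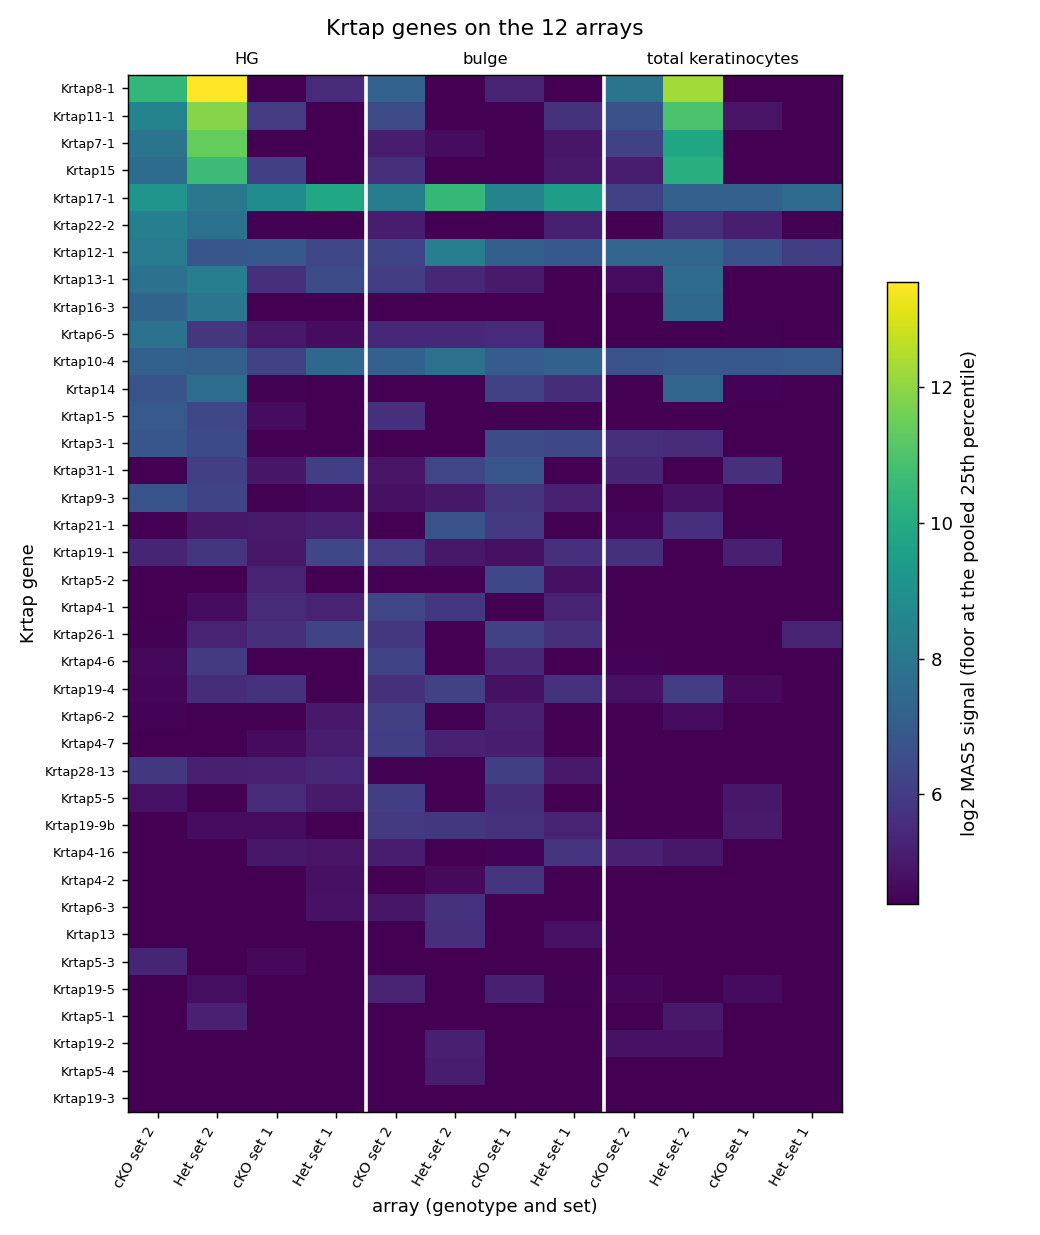
Log2 MAS5 signal of each of the 38 Krtap genes (rows, ordered by their highest value) on each of the 12 arrays (columns, 1 array each, grouped by fraction), with signals under the floor of 20.7 drawn at the floor. Krtap8-1, Krtap11-1, Krtap7-1 and Krtap15 are each highest on the Het HG and Het total keratinocyte arrays of set 2, while Krtap17-1 and Krtap10-4 are above the floor on all 12.

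Mean log2 signals of marker lists were compared with the labels of the fractions. Hair germ markers (Cdh3, Shh and Lef1) averaged 9.67 to 11.75 on HG arrays and 7.05 to 8.09 on bulge arrays, and bulge markers 9.87 to 10.64 on HG arrays and 13.17 to 13.61 on bulge arrays. Fibroblast markers were also higher on bulge arrays, at 9.94 to 11.04 on HG arrays and 13.21 to 14.62 on bulge arrays. Melanocyte markers ran the other way, at 10.14 to 10.69 on HG arrays and 6.995 to 7.95 on bulge arrays. Tgfbr2 itself had signals on the cKO arrays of 2533 and 4163 in HG (set 2, set 1), 3806 and 4523 in bulge, and 3519 and 4355 in total keratinocytes. The Het arrays, in the same order, had 1305 and 2854, 3863 and 5373, and 3272 and 3991. The cKO arrays were not lower in HG, and over all fractions the difference was 0.24 on the log2 scale (limma adjusted p = 0.67). The labels do not say whether these probes lie in the deleted part, so Tgfbr2 does not check the genotype labels.

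Of the high glycine-tyrosine genes, Krtap8-1, Krtap7-1 and Krtap22-2 were above the median on both HG arrays of set 2. On HG arrays Krtap8-1 had a signal of 1412 in cKO and 12002 in Het cells of set 2, against 3.67 in cKO and 44.3 in Het cells of set 1. On total keratinocyte arrays it had 242 in cKO and 5026 in Het cells of set 2, against 3.28 in cKO and 10.04 in Het cells of set 1. In bulge cells it had 153 in cKO and 4.13 in Het cells of set 2, and 38.5 in cKO and 10.9 in Het cells of set 1. Krtap8-1 was thus above the median on both HG and both total keratinocyte arrays of set 2 and on the cKO bulge array of set 2, and under it on the 7 other arrays.

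Krtap7-1, next to Krtap8-1 on chromosome 16 and of the same protein class, had the same 2 highest arrays. In HG cells it had 238 in cKO and 2663 in Het cells of set 2, against 1.85 in cKO and 3.98 in Het cells of set 1. In total keratinocytes it had 72 in cKO and 877 in Het cells of set 2, against 9.32 in cKO and 1.28 in Het cells of set 1. The 4 bulge signals lay between 6.62 and 33.9, all under the median.

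Krtap22-2, another high glycine-tyrosine gene, was distributed differently. In HG cells it had 320 in cKO and 229 in Het cells of set 2, against 10.5 in cKO and 4.27 in Het cells of set 1. Bulge and total keratinocyte signals lay between 3.96 and 50.4, so that the 2 HG arrays of set 2 alone were above the median. Krtap6-5, also of this class, had 230 in cKO HG cells of set 2, against 56.8 in Het HG cells of set 2. On the 10 other arrays Krtap6-5 was between 15.2 and 44.9.

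Among the high sulfur genes, Krtap11-1 had 362 in cKO and 3756 in Het HG cells of set 2, against 63.1 in cKO and 8.25 in Het HG cells of set 1. In total keratinocytes Krtap11-1 had 104 in cKO and 1972 in Het cells of set 2, against 29.0 in cKO and 19.6 in Het cells of set 1. Its bulge signals were 88.1 in cKO and 20.2 in Het cells of set 2, and 16.5 in cKO and 52.5 in Het cells of set 1. The 2 Het arrays outside the bulge in set 2 stood above every other array of this gene.

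Krtap15 showed the same 2 high arrays. In HG cells it had 197 in cKO and 1625 in Het cells of set 2, against 69.3 in cKO and 9.15 in Het cells of set 1. In total keratinocytes it had 34.5 in cKO and 1159 in Het cells of set 2, against 5.09 in cKO and 17.9 in Het cells of set 1. Its 4 bulge signals lay between 4.39 and 48.5.

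Krtap14, the neighbour of Krtap15, had 109 in cKO and 207 in Het HG cells of set 2, against 21.3 in cKO and 15.4 in Het HG cells of set 1. In total keratinocytes it had 7.07 in cKO and 167 in Het cells of set 2, and 22.3 in cKO and 19.1 in Het cells of set 1. In bulge cells it was lower in set 2, with 1.19 in cKO and 18.1 in Het cells, against 70.3 in cKO and 47.2 in Het cells of set 1. All 4 of these bulge signals were under the median.

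Krtap13-1 had 225 in cKO and 315 in Het HG cells of set 2, against 50.2 in cKO and 90.7 in Het HG cells of set 1. In bulge cells it had 65.8 in cKO and 42.5 in Het cells of set 2, and 33.1 in cKO and 18.4 in Het cells of set 1. In total keratinocytes it had 25.6 in cKO and 193 in Het cells of set 2, and 4.91 in cKO and 19.8 in Het cells of set 1. Its HG signal exceeded the bulge signal of the same genotype and set in all 4 conditions.

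Krtap3-1 had 113 in cKO and 86.6 in Het HG cells of set 2, against 16.5 in cKO and 20.2 in Het HG cells of set 1. In bulge cells the order of the sets was opposite, with 5.74 in cKO and 3.81 in Het cells of set 2, against 91.3 in cKO and 79.8 in Het cells of set 1. In total keratinocytes it lay between 2.98 and 48.7. Its highest signal was 113, close to the pooled median.

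Krtap16-3, with no assigned class, was above the median on 3 arrays and under the floor on the rest. It had 160 in cKO and 254 in Het HG cells of set 2 and 173 in Het total keratinocytes of set 2. On the 9 other arrays it lay between 0.463 and 3.74. Its second probe set read lower, with 89.5 in cKO and 95.5 in Het HG cells of set 2.

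**Figure D2:**
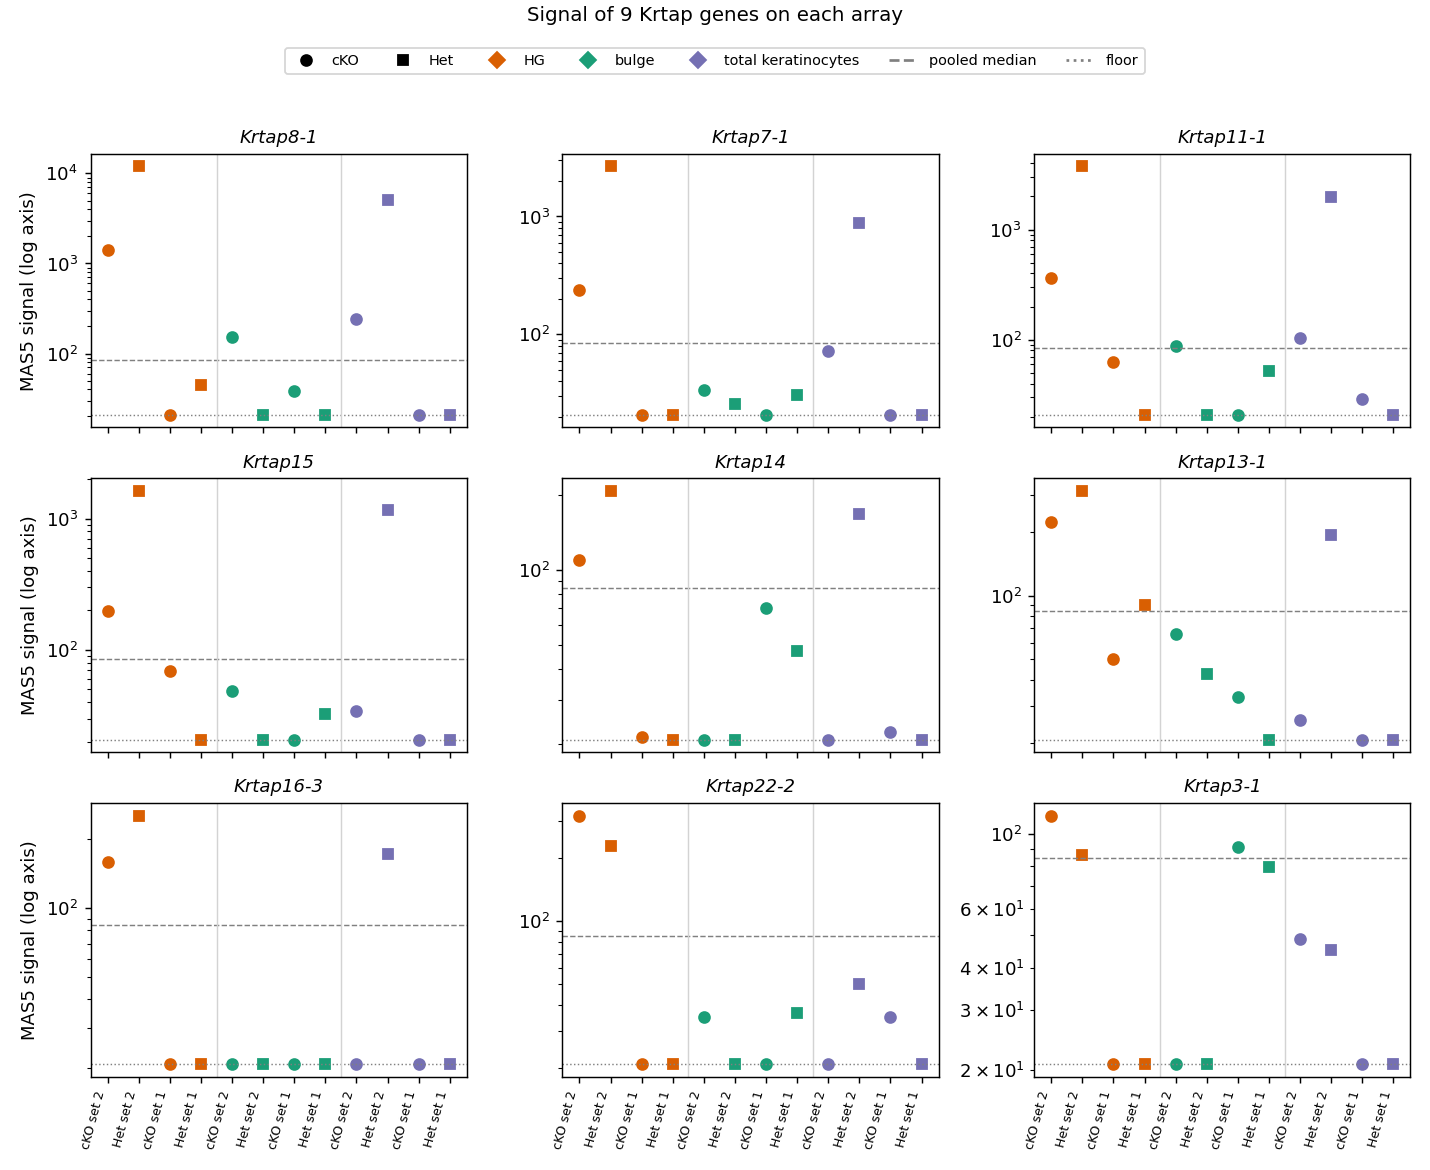
MAS5 signal (log axis, with values under the floor drawn at it) of 9 Krtap genes on each of the 12 arrays, with circles for cKO, squares for Het and a colour for each fraction. The dashed line is the pooled median of 84.7 and the dotted line the floor of 20.7. Each of the 9 genes is above the dashed line on both HG arrays of set 2.

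Of the genes counted here as ultra-high sulfur, 3 passed the median on at least 2 arrays. Krtap17-1 had 567 in cKO and 265 in Het HG cells of set 2, and 461 in cKO and 946 in Het HG cells of set 1. In bulge cells it had 300.3 in cKO and 1431 in Het cells of set 2, and 356 in cKO and 738 in Het cells of set 1. In total keratinocytes it had 70.6 in cKO and 147 in Het cells of set 2, and 146 in cKO and 191 in Het cells of set 1. The lowest HFSC signal of Krtap17-1 was above its highest total keratinocyte signal.

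Krtap10-4 had the narrowest range of the 12 genes on the log2 scale. It had 150.2 in cKO and 141 in Het HG cells of set 2, and 72.5 in cKO and 176 in Het HG cells of set 1. Its bulge signals lay between 132 and 218 and its total keratinocyte signals between 108 and 126. Krtap12-1 had 295 in cKO and 115 in Het HG cells of set 2, 119 in cKO and 80.6 in Het HG cells of set 1, and 66.8 to 319 on the 8 other arrays. Its second probe set stayed at or under 51.0 on every array and did not show the first one's signal. Since Krtap10-4 and Krtap12-1 overlap Tspear, signal from the 2 genes at a place cannot be told apart from the annotation alone.

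Set 2 was then compared with set 1 in HG cells, within each genotype. In cKO HG cells, called aberrantly quiescent in set 2, Krtap8-1 was at least 68.1-fold higher in set 2 than in set 1, Krtap22-2 at least 15.4-fold, Krtap7-1 at least 11.5-fold, Krtap11-1 5.74-fold and Krtap15 2.84-fold. In Het HG cells, called activated in set 2, Krtap8-1 was 271-fold higher in set 2, Krtap11-1 at least 181-fold, Krtap7-1 at least 128-fold and Krtap15 at least 78.3-fold. Each of these compares 2 arrays and has no replicate check, and in sorted pools fewer cells of a type and less RNA per cell cannot be told apart. Of the 38 genes, 14 were at least 2-fold higher in set 2 in cKO HG cells (2.72% of all genes) and 0 lower (3.08% of all genes). In Het HG cells 9 were at least 2-fold higher (5.77% of all genes) and 1, Krtap17-1, was at least 2-fold lower (12.4% of all genes). Both arrays of set 2 were above both of set 1 for 13 of the 38 genes in HG cells (13.4% of all genes), 6 in bulge cells (11.5%) and 11 in total keratinocytes (18.7%).

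A fit of all 12 arrays with genotype as a block, added after the values were seen, tested the set difference in each fraction (limma, Benjamini-Hochberg adjustment over all genes). In HG cells 0 of the 12 tested Krtap genes passed an adjusted p of 0.05, against 0.0235% of all genes tested, but 7 of the 12 (Krtap7-1, Krtap8-1, Krtap11-1, Krtap14, Krtap15, Krtap16-3 and Krtap22-2) exceeded the median on set 2 arrays alone and so entered the test through set 2. With no filter 0 of the 38 passed, 10 were higher and 1 lower in set 2 at an unadjusted p under 0.05, and 12.8% of all genes were under it. Krtap8-1 had the largest difference, 7.09 ± 1.27 on the log2 scale (SE, limma adjusted p = 0.0864), higher on both arrays of set 2. Krtap7-1 differed by 5.26 (adjusted p = 0.11), Krtap11-1 by 5.01 (adjusted p = 0.15) and Krtap22-2 by 3.71 (adjusted p = 0.11) on the same scale and fit. In set 1, Krtap7-1 and Krtap22-2 were under the floor on both HG arrays, Krtap8-1 on the cKO one and Krtap11-1 on the Het one. These differences are thus lower bounds, and the floor narrows the spread of set 1. Without the cKO HG array of set 2, 5 Krtap genes passed, 4 of them higher in set 2, against 12.9% of all genes. Set 2 then has 1 HG array, which is assumed to vary like the other groups.

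In bulge cells 0 of 12 Krtap genes passed in the same fit, against 0% of all genes tested, and Krtap3-1 had the largest difference, a log2 value of -2.04 (limma adjusted p = 0.56). At an unadjusted p under 0.05 stood 1 of the 12, against 6.14% of all genes tested. Of the 38 genes, 2 were at least 2-fold higher in set 2 in cKO bulge cells (2.45% of all genes) and 2 lower (6.15%). In Het bulge cells 2 were higher (2.58%) and 0 lower (4.94%). The set difference in HG minus that in bulge was tested directly, and 0 of 12 Krtap genes passed (0% of all genes). That difference was 4.30 on the log2 scale for Krtap3-1 (limma adjusted p = 0.70). With no filter 12 of the 38 genes were under an unadjusted p of 0.05, against 5.32% of all genes. Krtap3-1 alone then passed for this difference (limma adjusted p = 0.0173, 0.0055% of all genes called). It also passed as lower in set 2 in bulge cells (limma adjusted p = 0.0229, 0.077% of all genes called). The highest signal of Krtap3-1 on any array was 113. It was under the floor on both HG arrays of set 1 and on both bulge arrays of set 2. The floor narrows the spread of these arrays, so both adjusted p-values rest partly on it.

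Taking HG and bulge cells of a genotype together as the observations of a condition, 0 of 12 Krtap genes passed between sets in cKO HFSCs (0% of all genes), with 1 at an unadjusted p under 0.05 against 6.17% of all genes tested. In Het HFSCs 0 of 12 passed (0.707% of all genes), with 1 at an unadjusted p under 0.05 against 16.8% of all genes tested. Krtap13-1 differed by 1.58 on the log2 scale in cKO HFSCs (limma adjusted p = 0.80) and Krtap7-1 by 3.38 in Het HFSCs (limma adjusted p = 0.29). For the difference between these set effects, cKO minus Het, 0 of 12 Krtap genes passed (0.00794% of all genes) and 0 had an unadjusted p under 0.05 in limma, against 7.28% of all genes tested. Krtap8-1 had a set effect of 4.04 in cKO and 4.04 in Het HFSCs and a difference between them of -0.0023 with an SE of 2.57 on the log2 scale. Without the Het bulge array of set 2, 1 Krtap gene passed in cKO HFSCs (0.739% of all genes), 5 in Het HFSCs (20.5%) and 3 for the difference (7.98%). The arm left with 1 array is then assumed to vary like the others.

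In total keratinocytes, which have 2 arrays in each set, Krtap8-1 differed in set 2 by 5.73 ± 0.86 on the log2 scale (SE, limma adjusted p = 0.0313, genotype as a block), higher in both genotypes. Its set 1 signals were under the floor in both genotypes, so this difference is a lower bound and the floor narrows the spread of set 1. Krtap8-1 was 1 of the 5 Krtap genes tested in these 4 arrays, and 0.791% of all genes tested were called higher. Krtap8-1 and Krtap11-1 exceeded the median on the set 2 arrays alone and entered the test through them, and with no filter Krtap8-1 had an adjusted p of 0.42 and 0% of all genes were called. Krtap11-1 differed by 4.21 (limma adjusted p = 0.0553), Krtap12-1 by 1.00 (adjusted p = 0.15), Krtap17-1 by -0.71 (adjusted p = 0.26) and Krtap10-4 by -0.11. The Krtap8-1 call held in 4 of 8 alternatives and ended, besides having no filter, with a floor at the median (limma adjusted p = 0.0628), without the block (adjusted p = 0.0974) and without a trend (adjusted p = 0.16). In the 12-array fit 0 of 12 Krtap genes passed (0.0235% of all genes), and with no filter 4 of the 38 were under an unadjusted p of 0.05, against 8.68% of all genes.

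Within each genotype the total keratinocyte arrays gave single-array fold changes. In cKO total keratinocytes Krtap8-1 was at least 11.7-fold higher in set 2, Krtap11-1 3.59-fold and Krtap7-1 at least 3.47-fold. In Het total keratinocytes Krtap8-1 was at least 242-fold higher, Krtap11-1 at least 95.1-fold, Krtap15 at least 55.9-fold and Krtap7-1 at least 42.3-fold. Of the 38 genes, 2 were at least 2-fold higher in set 2 in cKO cells (1.4% of all genes) and 1, Krtap17-1, lower (3.63%). In Het cells 8 were higher (2.83%) and 0 lower (2.92%).

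**Figure D3:**
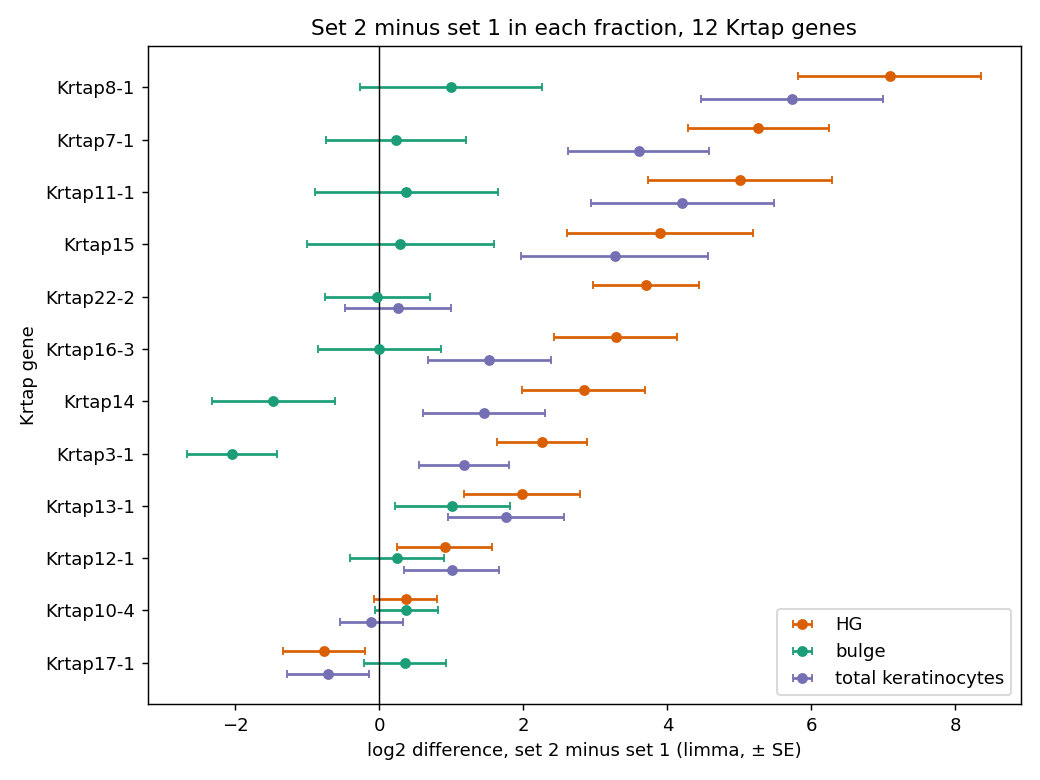
Log2 difference of set 2 minus set 1 with its SE from the 12-array limma fit, for the 12 Krtap genes above the median on at least 2 arrays, in HG, bulge and total keratinocytes. Krtap8-1 stands at 7.09 in HG cells, Krtap3-1 at -2.04 in bulge cells, and 0 of the 36 points passed the adjusted p of 0.05. Signals under the floor were set to it, so differences against them are lower bounds in size.

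Within set 2, cKO HG cells were compared with Het HG cells. The Krtap genes above the pooled median on at least 1 of the 2 arrays differed in both directions. Krtap7-1 was 11.2-fold lower in cKO cells, Krtap11-1 10.4-fold, Krtap8-1 8.50-fold and Krtap15 8.25-fold. Krtap14 was 1.90-fold lower, Krtap16-3 1.59-fold and Krtap13-1 1.40-fold. On the other side Krtap6-5 was higher in cKO cells by 2.02 on the log2 scale, Krtap12-1 by 1.36, Krtap17-1 by 1.10, Krtap1-5 by 0.62, Krtap9-3 by 0.51, Krtap22-2 by 0.48, Krtap3-1 by 0.39 and Krtap10-4 by 0.09. Krtap1-5 had signals of 123 in cKO and 80.0 in Het cells, and Krtap9-3 had 108 in cKO and 76.3 in Het cells. Of the 38 genes, 3 were at least 2-fold higher in cKO cells (11% of all genes) and 4 lower (5.49% of all genes). This pair is 1 array against 1, so no difference in it has a replicate check.

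In total keratinocytes of set 2 the same 4 genes were again lower in cKO cells, Krtap15 by 33.6-fold, Krtap8-1 by 20.8-fold, Krtap11-1 by 18.98-fold and Krtap7-1 by 12.2-fold. Krtap13-1 was 7.56-fold lower, Krtap16-3 at least 8.32-fold and Krtap14 at least 8.04-fold. Of the 38 genes, 8 were at least 2-fold lower in cKO cells (2.84% of all genes) and 0 higher (1.73%).

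In set 1, cKO HG cells had 0 Krtap genes at least 2-fold higher than Het HG cells (2.04% of all genes) and 2 at least 2-fold lower (2.35%). Over all fractions and both sets, 0 of 12 Krtap genes differed between cKO and Het at an adjusted p of 0.05 (limma, 0% of all genes), and 1 had an unadjusted p under 0.05, against 8.62% of all genes tested. That gene, Krtap17-1, had a log2 difference of -0.78 (limma adjusted p = 0.57). In bulge cells of set 2 it had 300.3 in cKO and 1431 in Het cells, the widest ratio of its 6 genotype pairs.

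**Figure D4:**
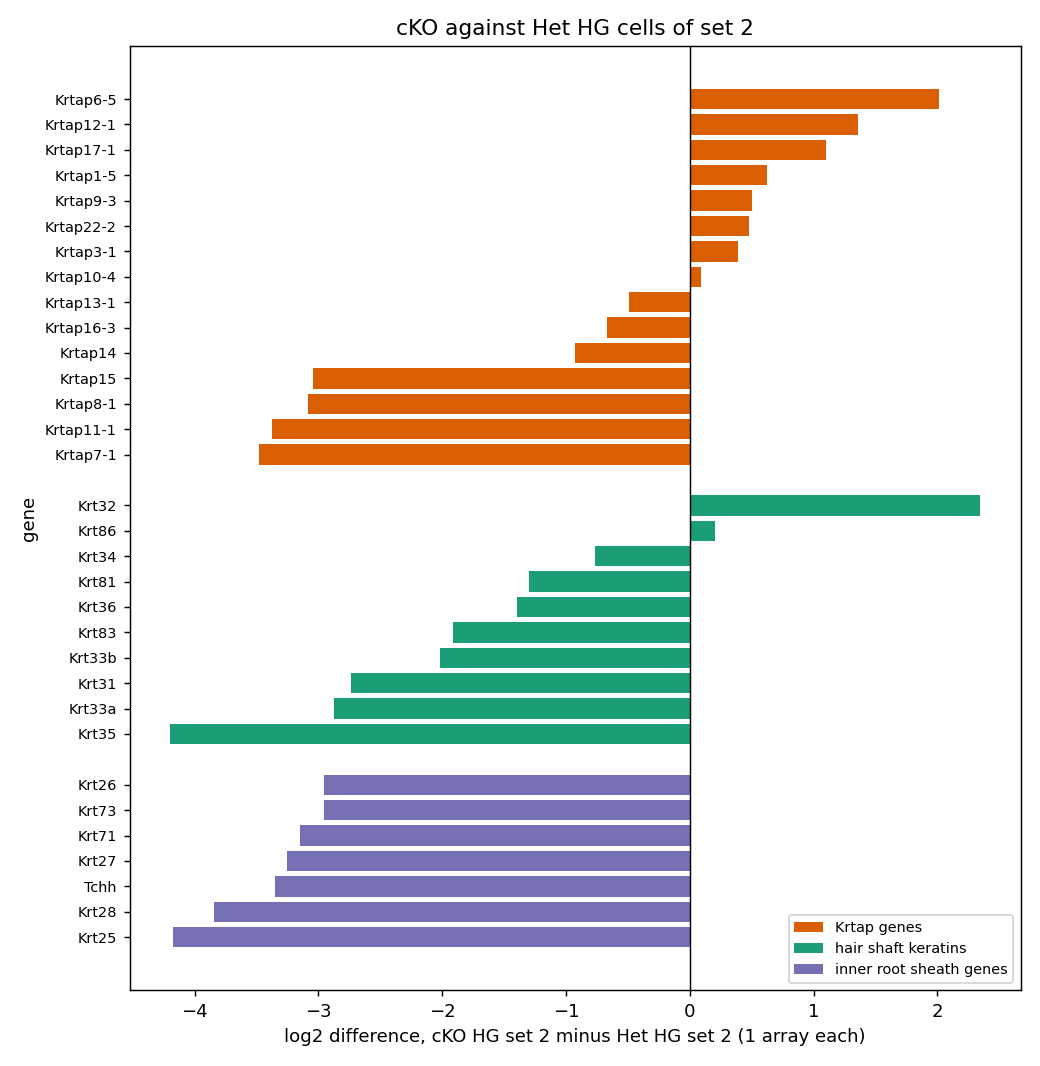
Log2 difference of cKO minus Het HG cells of set 2 (1 array each) for the Krtap genes, hair shaft keratins and inner root sheath genes above the pooled median on at least 1 of the 2 arrays. Bars left of 0 are lower in cKO cells. Krtap bars run between -3.48 for Krtap7-1 and 2.02 for Krtap6-5.

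Between fractions, HG cells were set against bulge cells over the 4 conditions of genotype and set. Of 12 Krtap genes tested, 1 was called higher in HG, Krtap13-1, with a log2 difference of 1.85 ± 0.49 (SE, limma adjusted p = 0.0291), higher in 4 of 4 conditions. It exceeded the median on 3 HG arrays and 0 bulge arrays, so that it entered the test through HG cells, and with no filter its adjusted p was 0.11. Of all genes tested, 8.44% were called higher and 10.7% lower in HG, and 0 Krtap genes were called lower. Krtap8-1 differed by 3.15 (limma adjusted p = 0.12) and Krtap15 by 2.35 (limma adjusted p = 0.11) without passing. Of the 12 Krtap genes tested, 6 exceeded the median on HG arrays alone and so entered through HG cells, Krtap13-1 and Krtap15 among them. The median difference over all 38 genes without a filter was -0.14, against -0.04 over all genes. The Krtap13-1 call held in 6 of 12 alternatives and ended, among others, without a block (adjusted p = 0.0723) and on leaving out the pair of Het set 1, Het set 2 or cKO set 2, with adjusted p between 0.0986 and 0.11.

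The mean of both HFSC fractions was set against total keratinocytes. Krtap17-1 was higher in HFSCs by 2.05 ± 0.37 on the log2 scale (SE, limma adjusted p = 0.0028), in 8 of 8 pairs of arrays. It was 1 of the 12 Krtap genes tested, and 9.55% of all genes tested were called higher. It was also higher in HG alone, by 1.96 (limma adjusted p = 0.0156, 5.11% of all genes called higher), and in bulge alone, by 2.15 (limma adjusted p = 0.0030, 13.8% of all genes called higher). With no filter it no longer passed in HG alone (limma adjusted p = 0.0946), while it did in bulge alone (adjusted p = 0.0356). Krtap17-1 exceeded the median on 8 HFSC and 3 total keratinocyte arrays. Markers of other cells differed in the same comparison, with 6 of 6 fibroblast markers (median log2 difference 1.10), 4 of 6 melanocyte markers (median 1.27) and 4 of 7 bulge markers called higher in HFSCs, and 4 of 6 epidermal differentiation markers called lower. The part of these cell markers in the Krtap17-1 difference was not tested. Within set 2, Het HG cells exceeded Het total keratinocytes 2.39-fold for Krtap8-1, 1.90-fold for Krtap11-1 and 4.54-fold for Krtap22-2. The median HFSC difference over all 38 genes without a filter was 0.34, against 0.10 over all genes.

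Other shaft genes were read from lists beside the Krtap genes. In cKO HG cells of set 2, 7 of 12 hair shaft keratins were at least 2-fold lower than in Het HG cells of set 2 and 1, Krt32, was higher, with a median log2 difference of -1.35. Krt35, a hair cortex keratin, had 748 in cKO and 13738 in Het HG cells of set 2, against 153 in cKO and 321 in Het HG cells of set 1. Of 8 inner root sheath genes, which serve the sheath around the growing shaft, 7 were at least 2-fold lower in cKO HG cells of set 2 and 0 higher, with a median of -3.20. Of 12 regulators of shaft and matrix, 9 were at least 2-fold lower and 0 at least 2-fold higher, with a median of -2.43. Gata3 was higher by 0.71 on the log2 scale. Over all genes, 5.49% were at least 2-fold lower in this pair of arrays and 11% at least 2-fold higher. Among these regulators Dlx3 was 17.5-fold lower, Shh 5.73-fold, Lef1 5.06-fold and Hoxc13 1.58-fold. Msx2 had 544 in cKO and 3243 in Het HG cells of set 2, and Foxn1 had 103 in cKO and 376 in Het HG cells of set 2. On the same arrays Mki67, a proliferation gene, was 2.35-fold lower.

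In total keratinocytes Krt35 had 713 in cKO and 5181 in Het cells of set 2, against 58.8 in cKO and 32.1 in Het cells of set 1. Krt25, an inner root sheath keratin, had 1062 in cKO and 6864 in Het cells of set 2, against 5.64 in cKO and 49.2 in Het cells of set 1. In these arrays 2 of the 5 hair shaft keratins tested, Krt35 among them, 4 of the 6 inner root sheath genes, Krt25 among them, and 2 of the 11 regulators exceeded the median on set 2 arrays alone, and no call is given for them. Above the median on all 4 arrays, Tchh, which encodes trichohyalin of the inner root sheath, was higher in set 2 by 3.02 on the log2 scale (limma adjusted p = 0.0099) and Krt28 by 3.96 (adjusted p = 0.0286), though with no filter 0% of all genes were called. Between HG and bulge, Hoxc13 was higher in HG by 1.82 on the log2 scale (limma adjusted p = 2.33e-04). Krt35 and Krt28 were called higher in HG too, by 3.49 and 2.60 (limma). Called higher were 5 of 11 regulators tested, 1 of 10 hair shaft keratins and 1 of 6 inner root sheath genes, against 8.44% of all genes tested. With no filter Krt35 and Krt28 did not pass (limma adjusted p = 0.13 and 0.19).

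Markers of other cells moved with some of these differences. The mean log2 signal of immune markers was 9.12 in cKO and 7.38 in Het HG cells of set 2, and 9.19 in cKO and 9.09 in Het HG cells of set 1. That of epidermal differentiation markers was 9.22 in cKO and 8.34 in Het HG cells of set 2, and 10.58 in cKO and 10.31 in Het HG cells of set 1. Melanocyte markers had 10.62 in cKO and 10.14 in Het HG cells of set 2, and dermal papilla markers had 7.28 in cKO and 6.82 in Het HG cells of set 2. In total keratinocytes the 6 fibroblast markers had a median log2 difference of -1.11 between sets (set 2 minus set 1), against -0.04 over all genes tested. This was the comparison in which Krtap8-1 was higher, and with no filter 0% of all genes were called in it. The part of these markers in the Krtap differences was not tested. Erythroid markers were at the floor on all 4 HG arrays, with a mean log2 signal of 4.37.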

How the data were processed

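The values the authors deposited are linear MAS5 intensity, 1 column for each array. The submitters' processing notes name MAS5 and the sources used here give no version of it. Per the labels, 2 µg of total RNA, extracted in Trizol, was turned into biotin-labelled cRNA. Each of the 12 arrays was checked to have a mean of 500 after 2% of values were trimmed at each end, and no further normalization was added. Of 45101 probe sets, 64 controls were left out and 34945 had 1 gene symbol. Per gene the probe set with the highest mean log2 signal was kept. Signals under the pooled 25th percentile were set to it before the log2.

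Genes whose signal passed the pooled median on 2 or more arrays in a fit were tested two-sided with lmFit and eBayes (with trend) of limma 3.58.1, run in R 4.3.3, with Benjamini-Hochberg adjustment over all genes and a threshold of 0.05. HG against bulge and HFSCs against total keratinocytes were blocked by genotype and set (4 conditions), total keratinocyte sets had genotype, set effects in HFSCs had fraction, and cKO against Het had the fraction-by-set cell. Each array was also taken as its deviation from the mean of its genotype over all fractions and sets. These deviations were correlated between cKO and Het arrays of the same fraction and set in all 6 pairs (0.429 to 0.626 across genes). Differences between fractions enter these correlations, so they cannot show whether cKO and Het arrays were paired. The 12-array comparison of sets within each fraction was added after the values were seen. Single arrays were compared by fold changes of at least 2, untested, where the higher signal exceeded the pooled median. The number of arrays limits the precision. The fits were tested on simulated data.

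The genes, lists and tests were chosen with earlier results of these data known. Krtap genes above the pooled median on at least 2 arrays were named with every signal, and in each comparison those past the threshold, or else those of largest change. Up to 4 genes of each companion list were named, besides Hoxc13, Foxn1, Lef1, Msx2, Shh and Mki67. Classes planned from protein composition were replaced after the values were seen by classes assigned by family number, which were not checked against protein sequences. Krt85, Krt87, Krt74, Dsg4, Awat2 and hemoglobin beta genes were not analysed here. Alternatives were quantile normalization, other floors and filters, other probe set rules, no trend, other blocks and leaving out arrays.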

Additional observations from a re-analysis of the deposited data

Results flagged for a closer look

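Probe sets that the comparisons did not use had signal above the pooled median. The probe set shared by Krtap3-2 and Krtap3-3 had 157.8 in cKO and 173.6 in Het HG cells of set 2 and 105.5 in Het total keratinocytes of set 2, and was under the median on the 9 other arrays. A second probe set of the same pair stayed under the floor on all 12 arrays. The probe set shared by Krtap6-1 and 2 further symbols had 166 in cKO HG cells of set 2 and was under the median on the 11 other arrays. The second probe set of Krtap16-3 had 89.5 in cKO and 95.5 in Het HG cells of set 2, which are 2 of the 3 arrays on which the first one was above the median.

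Krtap10-4 was higher in set 2 than in set 1 in bulge cells, by 0.19 in cKO and 0.55 in Het cells on the log2 scale, and lower in set 2 in total keratinocytes, with differences of -0.16 in cKO and -0.06 in Het cells. Both genotypes pointed one way in each of these 2 fractions. In HG cells they did not. There the signal was 150.2 in set 2 and 72.5 in set 1 in cKO cells, and 141 in set 2 and 176 in set 1 in Het cells. Each difference is between single arrays. The difference between the fractions was not tested, and the share of all genes with such a pattern was not counted.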

How the results depend on the processing

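Between the mean of both HFSC fractions and total keratinocytes, Krtap17-1 remained the 1 Krtap gene called under all 13 alternatives, with log2 differences between 1.89 and 2.25. The count between HG and bulge was 0 in place of 1 with a floor at the pooled median, with a filter at the 75th percentile and with no replicate block, and 0 to 1 on leaving out a pair. With no filter it was 1, but Krtap13-1 was not called (adjusted p = 0.11), and Krtap19-9b, below the median on all 12 arrays, was called lower in HG (log2 difference -1.17, adjusted p = 0.0396). For Krtap13-1 the log2 difference stayed between 0.85 and 2.26. The count between total keratinocyte sets was 0 in place of 1 with a floor at the median, with no filter, with a filter at the 75th percentile, without a trend and with no replicate block. Krtap8-1 there had adjusted p between 0.0095 and 0.42, and leaving out an array was not possible, with 0 residual degrees of freedom. With no filter, no trend or no block, 0% of all genes were called in that comparison. Leaving out an array gave 0 to 5 calls between sets in Het HFSCs, 0 to 1 in cKO HFSCs and 0 to 3 for the interaction, with the highest counts (20.5%, 0.739% and 7.98% of all genes) all without the Het bulge array of set 2. An arm left with 1 array is assumed to vary like the other groups. In HG cells between sets, the count also moved when an array was left out. A floor at the median gave 1 call there, Krtap22-2 (limma adjusted p = 0.0437). This gene exceeded the median on the 2 HG arrays of set 2 alone and so entered the test through set 2. That floor gave all its other arrays the same value, which narrows the spread behind the call. Of the 38 genes, 5 in place of 12 exceeded the 75th percentile of 474 on 2 arrays. Between cKO and Het the count was 0 under all 15 alternatives. Of the named genes' differences that were recomputed, 0 changed sign, and the causes were not tested. As to pairing, HG and bulge arrays of a condition deviated together with correlations of 0.076 to 0.289 in 4 pairs. The number of arrays, and signal near background for 26 of the 38 genes, limit what can be seen.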

Other observations

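By their list means, inner root sheath genes and Krtap genes were ordered differently among the cKO arrays of set 2. The mean log2 signal of 8 inner root sheath genes was 7.47 in HG, 7.98 in bulge and 7.78 in total keratinocytes of cKO mice in set 2, so that HG was the lowest of the 3. That of the 38 Krtap genes was 5.86 in HG, 5.37 in bulge and 4.94 in total keratinocytes. Krt25, an inner root sheath keratin, had 707 in HG, 1332 in bulge and 1062 in total keratinocytes there. Krt28 and Krt72 of the same list were instead highest in HG. Krt28 had 766 in HG, 654 in bulge and 696 in total keratinocytes, and Krt72, under the median on all arrays, had 40.3, 23.5 and 11.4. Krtap8-1 had 1412 in HG, 153 in bulge and 242 in total keratinocytes on the same arrays. In Het cells of set 2 Krt25 and Krtap8-1 were both highest in HG, at 12769 for Krt25 and 12002 for Krtap8-1, against 319 and 4.13 in bulge. Each value is 1 array and the differences were not tested.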
